A study of Homo sapiens with 4 samples.

Results

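A set of 10 genes that encode surface proteins of early blood cells was followed here in CD31+ cells made from H1, a human embryonic stem cell line, with and without HAND1 overexpression. They are PTPRC, SPN, CD34, KIT, CD33, CD44, CD48, CD53, CD52 and CD69, chosen by name, and each had 1 row among the 58229 genes kept from the deposited table, so 10 of 58229 genes were taken. The series holds 2 libraries labelled Control and 2 labelled HAND1_OE, all from CD31+ cells collected at day 8 of hematopoietic differentiation. All cells had first received activin A and BMP4 and then VEGF and bFGF in Custom mTeSR1 medium, and the HAND1_OE cells expressed HAND1, a bHLH transcription factor of mesoderm, ectopically before hemogenic endothelial progenitors become hematopoietic progenitors. The promoter that drives HAND1, the number of clones and whether the libraries of a group come from separate cultures are not given in the sources used here. The p-values set each difference against the spread between these libraries, shared in part across genes, and that spread may be technical.

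Blood cells first arise from hemogenic endothelium, which loses endothelial features and takes on hematopoietic surface proteins in a stepwise order. CD43, the product of SPN, is among the first proteins that separate new blood progenitors from endothelium in human pluripotent stem cell cultures, and CD45, the product of PTPRC, follows later. CD34, KIT and CD44 are carried by blood progenitors and by endothelium alike, so they are described apart from the 7 genes that are restricted to blood cells. CD31, the protein used to define the cells, is itself found on endothelium, platelets and many blood progenitors, so the labelled population can hold both lineages.

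HAND1 was at 12.1 and 14.3 FPKM in Control, against 521 and 517 FPKM in HAND1_OE. The values go with the labels. FPKM counts the fragments of a gene per length of transcript and relative to the depth of the library, and all levels below are in that unit, first replicate first. All 4 libraries held a similar number of genes at 1 FPKM or more, between 13989 and 14542. PECAM1, which encodes CD31, was at 95.5 and 141 FPKM in Control, against 91.97 and 160 FPKM in HAND1_OE. The comparison was made with limma on log2(FPKM + 1) over the 14622 genes that reached 1 FPKM in 2 or more libraries, and a gene was called at an adjusted p under 0.05. All fold changes below are HAND1_OE against Control on that scale, which understates the change of genes with low values.

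Of the 10 genes, 8 passed the filter and were tested, and PTPRC and CD48 did not. SPN, CD69 and CD53, all restricted to blood cells, fell in HAND1_OE. None of the 8 was called higher, and none of the 3 genes shared with endothelium was called in either direction. At an unadjusted p under 0.05 in limma, 4 blood-restricted genes and KIT were lower, and CD52 and CD44 were higher. At that same threshold 1554 of the 14622 genes tested were lower and 997 were higher. Over all genes tested, 2.11% were called lower and 2.04% were called higher. Both HAND1_OE libraries lay below both Control libraries in 5 of the 8 tested genes, against 30.1% of all genes tested, and above them in 2 of the 8, against 16.2% of all genes tested. As a median, the log2 fold change was -1.46 for the 5 blood-restricted genes tested and -0.59 for the 3 genes shared with endothelium, beside -0.08 for all genes tested. CD53 passed the filter only through its Control libraries, so its direction and its lack of overlap were fixed by the filter. It counts among the genes that fell and among the 5 without overlap, and the first of these medians rests in part on it. In bulk RNA, fewer cells of a type and less RNA per cell cannot be told apart.

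SPN encodes CD43, a heavily glycosylated sialomucin of leukocytes, platelets and blood progenitors, and lies at chr16:29662979-29670876 on the plus strand of GRCh38. It was at 18.9 and 21.1 FPKM in Control, against 1.92 and 0.974 FPKM in HAND1_OE. The Control libraries were close to each other and far above every HAND1_OE value, with no overlap. SPN had a mean of 19.98 ± 1.57 FPKM (SD, n = 2) in Control against 1.45 ± 0.666 FPKM (SD, n = 2) in HAND1_OE, 13.8-fold lower. Its log2 fold change was -3.13 (SE 0.236), with a 95% interval from -3.71 to -2.54 and an adjusted p of 0.00700. SPN stood at the 69.6th percentile of levels among the genes tested in Control and at the 11th in HAND1_OE.

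An annotated protein-coding gene, AC009086.2, overlaps SPN on the same strand, so fragments could be divided between them. AC009086.2 was at 26.9 and 37.9 FPKM in Control, against 38.2 and 33.8 FPKM in HAND1_OE, with overlapping groups. The groups of AC009086.2 were thus not apart as those of SPN were. How much of the value of either gene was moved between them by the estimate was not tested.

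CD69 encodes a C-type lectin that appears early on activated leukocytes and that keeps S1PR1 off the cell surface, and it lies at chr12:9752486-9760901 on the minus strand. It was at 14.0 and 21.1 FPKM in Control, against 1.79 and 2.75 FPKM in HAND1_OE. Both HAND1_OE values lay well below the lower Control value. Mean CD69 was 17.5 ± 4.96 FPKM (SD, n = 2) in Control against 2.27 ± 0.682 FPKM (SD, n = 2) in HAND1_OE, 7.74-fold lower, and the log2 fold change was -2.49 (SE 0.261) with an adjusted p of 0.0115. The 95% interval ran from -3.14 to -1.84. Among the tested genes, CD69 moved from the 66.4th percentile of levels in Control to the 19.0th in HAND1_OE.

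CD53 encodes a tetraspanin of the leukocyte membrane, a 4-pass protein that organizes other surface molecules, and it lies at chr1:110873154-110899928 on the plus strand. The upstream sequences of the CD53, CD33 and CD52 genes are shown because these 3 blood-restricted genes were tested, were matched in the RefSeq promoter table (GRCh38.p14) and had fold changes of different sign, although CD33 and CD52 did not pass the test. Capitals mark the letters searched, which are ACTTCC, the ETS-type GGAAGT read on the other strand, and CATCTG, a sequence of the kind that HAND and E proteins bind.
CD53, chr1:110873028-110873147, plus strand: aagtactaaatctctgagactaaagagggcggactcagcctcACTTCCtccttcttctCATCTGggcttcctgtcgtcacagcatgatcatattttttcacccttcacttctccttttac
CD33, chr19:51224960-51225063, plus strand: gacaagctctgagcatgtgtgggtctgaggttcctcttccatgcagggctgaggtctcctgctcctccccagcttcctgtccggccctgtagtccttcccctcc
CD52, chr1:26317838-26317956, plus strand: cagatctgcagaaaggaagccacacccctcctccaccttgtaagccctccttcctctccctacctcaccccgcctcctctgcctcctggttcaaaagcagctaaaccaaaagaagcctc
Each printed stretch lies outside the gene as the deposited table places it.

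Short sequences of the ETS, HAND, GATA and RUNX type were searched on both strands in the 250 bases before each RefSeq start, and entries for 8 of the 10 genes were matched. The table has no entry for SPN and CD69. The ETS-type GGAAGT was in the windows of CD44, CD53 and PTPRC and in 19.5% of the 35116 promoters of the table. CATCTG was in those of CD34 and CD53 and in 12.2% of all promoters. AGATAA, of the GATA type, was in that of CD48 and in 9.17% of all promoters, and TGTGGT, of the RUNX type, was in none of the matched windows and in 11% of all promoters. CD53 has 2 entries in the table, and its matches to both GGAAGT and CATCTG lay in the entry shown above, while the other entry held none of the letters searched. A match is a description of letters only.

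CD53 was at 1.85 and 2.34 FPKM in Control, against 0.250 and 0.180 FPKM in HAND1_OE. These levels correspond to about 52.8 and 65.4 fragments in Control and 8.46 and 5.29 fragments in HAND1_OE, if all came from the longest coding transcript. The groups lay apart, which the filter had fixed, and CD53 was a low gene in all 4 libraries. Its mean was 2.10 ± 0.344 FPKM (SD, n = 2) in Control against 0.215 ± 0.0495 FPKM (SD, n = 2) in HAND1_OE, 9.76-fold lower. Its log2 fold change was -1.35 (SE 0.217), with an adjusted p of 0.0355 and a 95% interval from -1.89 to -0.80. The same difference was -2.80 on the log2(FPKM + 0.1) scale, where the pseudocount takes up less of a low value. With any 1 of the 4 libraries left out CD53 was no longer called, with an adjusted p between 0.0598 and 0.132.

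CD33 encodes a sialic acid-binding receptor of the Siglec family on myeloid cells and their progenitors, and it lies at chr19:51225064-51243860 on the plus strand. It was at 7.44 and 4.09 FPKM in Control, against 1.07 and 1.72 FPKM in HAND1_OE. Both HAND1_OE values were below both Control values, although the Control values differed between themselves. CD33 averaged 5.76 ± 2.37 FPKM (SD, n = 2) in Control against 1.40 ± 0.456 FPKM (SD, n = 2) in HAND1_OE, a 4.13-fold difference of means, with a log2 fold change of -1.46 (SE 0.304). Its adjusted p of 0.0671 missed the threshold, and its 95% interval for this gene alone ran from -2.22 to -0.71. Without Control replicate 2 the log2 fold change was -1.83 with an adjusted p of 0.0456, and without HAND1_OE replicate 2 it was -1.66 with an adjusted p of 0.0442, so CD33 passed in both of those fits. It did not pass without Control replicate 1, at -1.10 with an adjusted p of 0.167, or without HAND1_OE replicate 1, at -1.27 with an adjusted p of 0.112.

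CD52 encodes a short glycosylphosphatidylinositol-anchored peptide of lymphocytes and monocytes and is the smallest gene of the group, at chr1:26317957-26320523 on the plus strand. It was at 1.01 and 0.484 FPKM in Control, against 2.61 and 2.26 FPKM in HAND1_OE, so both HAND1_OE values were the higher ones. Through its short transcript of 468 nucleotides, these values rest on about 4.09 and 2.02 fragments in Control and 13.2 and 9.01 fragments in HAND1_OE. Mean CD52 was 0.745 ± 0.370 FPKM (SD, n = 2) in Control against 2.43 ± 0.252 FPKM (SD, n = 2) in HAND1_OE. For CD52 the log2 fold change was 0.99 (SE 0.239), with an adjusted p of 0.0976 and a 95% interval from 0.40 to 1.58. CD52 differed in sign from the other 4 blood-restricted genes tested. UBXN11 overlaps CD52 on the opposite strand, at 8.47 and 4.63 FPKM in Control and 6.14 and 5.37 FPKM in HAND1_OE, and whether the counting used strand is not given in the sources used here.

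PTPRC encodes CD45, the receptor tyrosine phosphatase that marks nearly all nucleated blood cells, and lies at chr1:198638671-198757283 on the plus strand. The files listed PTPRC at 0.0208 and 0 FPKM in Control, against 0.0227 and 0 FPKM in HAND1_OE. The values above 0 correspond to about 2.35 and 3.05 fragments on its longest coding transcript of 5390 nucleotides, so a difference between the groups was not detectable at this depth. CD48, a glycosylphosphatidylinositol-anchored ligand of CD2 and CD244 at chr1:160678746-160711851 on the minus strand, was nearly as low. It was at 0.242 and 0.164 FPKM in Control, against 0.0903 and 0.292 FPKM in HAND1_OE, or about 8.10, 5.37, 3.59 and 10.1 fragments. The CD48 groups overlapped, and neither gene reached the minimum for the test.

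**Figure D1:**
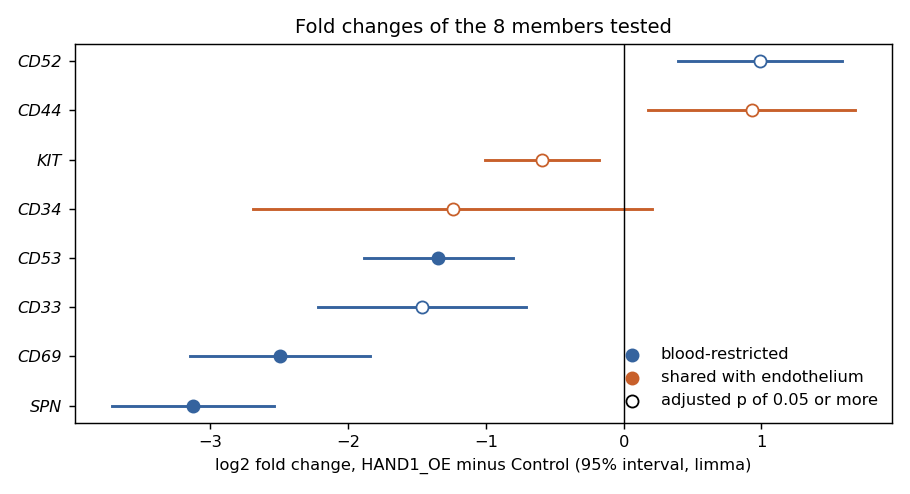
Log2 fold change (HAND1_OE against Control, log2(FPKM + 1) scale) of the 8 tested genes with its 95% interval, split into blood-restricted genes and genes shared with endothelium. SPN, CD69 and CD53 are the genes called, the interval of CD34 crosses 0, and CD44 and CD52 lie on the higher side.

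CD34 encodes a sialomucin of hematopoietic progenitors and vascular endothelium and lies at chr1:207880972-207911402 on the minus strand. It was at 67.5 and 130 FPKM in Control, against 21.7 and 70.0 FPKM in HAND1_OE. The upper HAND1_OE value exceeded the lower Control value, so the groups overlapped, and in each group replicate 2 was the higher library. CD34 averaged 98.9 ± 44.5 FPKM (SD, n = 2) in Control against 45.8 ± 34.2 FPKM (SD, n = 2) in HAND1_OE. Its log2 fold change of -1.24 (SE 0.582) had an adjusted p of 0.367 and a 95% interval from -2.69 to 0.21, which holds both a deep fall and a small rise. The value moved with the libraries used. It was -2.07 with an adjusted p of 0.0222 without HAND1_OE replicate 2, which was the leave-out that gave a call, and -0.42 with an adjusted p of 0.686 without HAND1_OE replicate 1. Without Control replicate 2 it was -0.77 with an adjusted p of 0.704, and without Control replicate 1 it was -1.71 with an adjusted p of 0.288.

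KIT encodes the receptor tyrosine kinase for stem cell factor, used by blood progenitors, mast cells and hemogenic endothelium, and lies at chr4:54657918-54740715 on the plus strand. It was at 6.52 and 7.13 FPKM in Control, against 4.14 and 4.23 FPKM in HAND1_OE. KIT varied least within groups, relative to its mean, and its groups did not overlap. The difference was small beside those of SPN and CD69, from 6.83 ± 0.433 FPKM (SD, n = 2) to 4.18 ± 0.0646 FPKM (SD, n = 2), or 1.63-fold. The log2 fold change was -0.59 (SE 0.166), the adjusted p was 0.143, and the 95% interval ran from -1.01 to -0.18.

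CD44 encodes the main receptor for hyaluronan, used by leukocytes, endothelium and mesenchymal cells alike, and lies at chr11:35138870-35232402 on the plus strand. It was at 38.8 and 61.2 FPKM in Control, against 75.1 and 117 FPKM in HAND1_OE. Both HAND1_OE values were above both Control values, and as with CD34 replicate 2 was the higher library of each group. CD44 averaged 50.0 ± 15.8 FPKM (SD, n = 2) in Control against 96.1 ± 29.7 FPKM (SD, n = 2) in HAND1_OE, 1.92-fold higher. Its log2 fold change was 0.93 (SE 0.302), with an adjusted p of 0.195 and a 95% interval from 0.18 to 1.68.

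**Figure D2:**
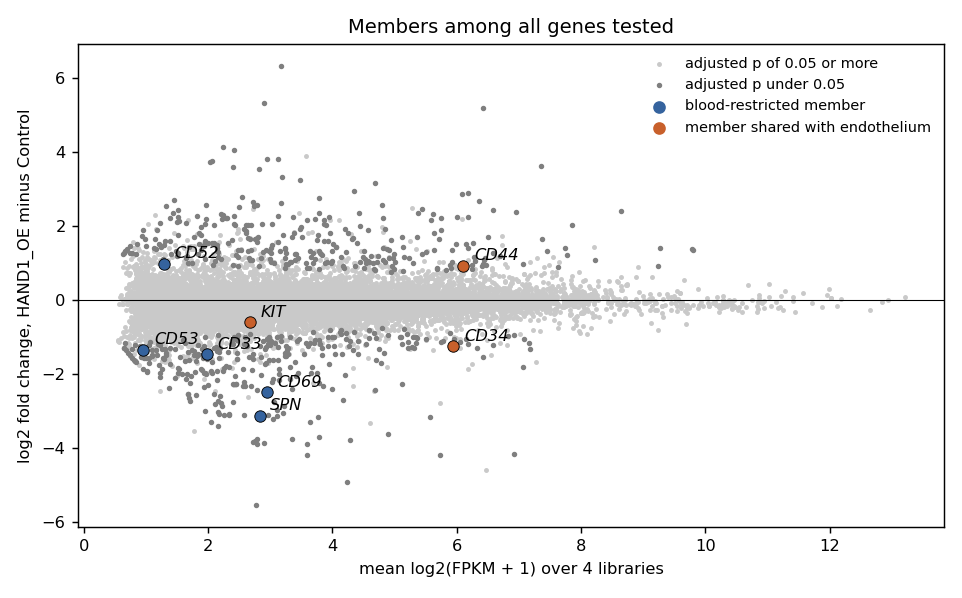
Mean log2(FPKM + 1) of all 14622 tested genes (x axis) against their log2 fold change, HAND1_OE against Control (y axis), with the 8 tested surface protein genes named. SPN and CD69 lie at the lower edge of the cloud at middle levels, and CD34 and CD44, at high levels, lie on opposite sides of 0.

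FPKM is scaled by transcript length, so levels may be set in order between genes. In Control, CD34 was highest at 98.9 FPKM and CD44 next at 50.0 FPKM, without overlap, followed by SPN and CD69, whose libraries overlapped, then by KIT and CD33, which also overlapped. CD53, CD52, CD48 and PTPRC formed the low end, in that order. In HAND1_OE the order began with CD44 at 96.1 FPKM and CD34 at 45.8 FPKM, and CD44 was above CD34 in both libraries. KIT came next in HAND1_OE at 4.18 FPKM. CD52, CD69, SPN and CD33 followed between 2.43 and 1.40 FPKM, and each neighbor in that order overlapped with the next. CD53 and CD48 came below them with overlapping values, and PTPRC was last. Of the 8 genes tested, CD44 and CD52 gained in percentile of level among the tested genes, from the 87.7th to the 94.1st and from the 1.46th to the 20.4th. Summed over the 7 blood-restricted genes, the level was 43.5 and 49.2 FPKM in Control and 7.75 and 8.17 FPKM in HAND1_OE, and SPN and CD69 made up most of it in Control. The sum of CD34, KIT and CD44 was 113 and 199 FPKM in Control and 101 and 191 FPKM in HAND1_OE, with overlap.

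The genes around these proteins were read from a list of 30 ligands, kinases and adaptors, of which 24 were tested, 2 were called lower and 1 higher, with a median log2 fold change of -0.15. PTPN6, the SHP-1 phosphatase that docks to the cytoplasmic tail of CD33, fell from 18.7 and 17.9 FPKM to 6.53 and 9.07 FPKM, a log2 fold change of -1.15 at an adjusted p of 0.0397. S1PR1, the sphingosine 1-phosphate receptor that CD69 binds, fell from 40.9 and 39.8 FPKM to 19.2 and 22.04 FPKM, a log2 fold change of -0.94 at an adjusted p of 0.0341. HAS2, the enzyme that makes hyaluronan, the ligand of CD44, rose from 19.2 and 16.7 FPKM to 32.0 and 33.8 FPKM, a log2 fold change of 0.84 at an adjusted p of 0.0462. HAS2 and CD44 were thus both higher in each HAND1_OE library than in each Control library, though CD44 itself was not called. Of all genes tested, 16.2% were separated in that way. HAS1 and HAS3, the other hyaluronan synthases of the list, went the other way without overlap. Both were too low to be tested, with HAS3 at 1.16 and 0.834 FPKM in Control and 0.226 and 0.482 FPKM in HAND1_OE.

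Other partners are named after their values were seen. KITLG, which encodes stem cell factor, was at 3.10 and 8.59 FPKM in Control, against 4.37 and 8.50 FPKM in HAND1_OE, overlapping, with an adjusted p of 0.901. PTPRCAP, which encodes the CD45-associated protein, was at 5.36 and 5.04 FPKM in Control, against 2.73 and 2.27 FPKM in HAND1_OE, which differed by -0.83 on the log2 scale at an adjusted p of 0.0781, while PTPRC itself was at or near 0. CD2, the T cell ligand of CD48, was listed at 0 in all 4 libraries, and CD244, its other ligand, was between 0.466 and 0.746 FPKM.

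Among 42 relatives of these genes in the same protein families, 22 were tested, none was called lower (3 at an unadjusted p under 0.05) and 4 were called higher, and the median log2 fold change was 0.16. PDGFRB, a receptor kinase of the same class as KIT, rose from 7.92 and 5.09 FPKM to 32.6 and 25.9 FPKM, a log2 fold change of 2.03 at an adjusted p of 0.0164. CD82, a tetraspanin like CD53, rose from 50.1 and 47.7 FPKM to 192 and 137 FPKM, a log2 fold change of 1.71 at an adjusted p of 0.0159. SIGLEC15, a Siglec like CD33, rose from 1.46 and 1.23 FPKM to 6.59 and 5.08 FPKM, a log2 fold change of 1.54 at an adjusted p of 0.0220. The fourth was CD9, another tetraspanin, with a log2 fold change of 1.09 at an adjusted p of 0.0305. The called tetraspanins and SIGLEC15 thus had the opposite sign to CD53 and to CD33, which was itself not called. SIGLEC15 was the only Siglec relative tested. Other tetraspanins were lower without overlap and not called, TSPAN33 with a log2 fold change of -1.05 and CD37 with -0.46. CD63, CD81 and CD151 lay between 0.04 and 0.30, with overlapping groups.

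Of 28 other surface proteins of blood progenitors, 21 were tested, 7 were called lower and none was called higher (2 at an unadjusted p under 0.05), with a median log2 fold change of -0.56. The largest changes among the 7 called were those of ITGA2B, the integrin subunit CD41, from 92.4 and 115 FPKM to 10.3 and 5.33 FPKM, then of CSF3R, the receptor for granulocyte colony-stimulating factor, and of ITGB2, the leukocyte integrin subunit CD18. Their log2 fold changes were -3.62, -1.89 and -1.49. ITGB2 was 1 of 2 called genes of this list under 1 FPKM in both HAND1_OE libraries, which passed the filter only through Control, so that their direction was fixed by it. Of 22 cytoplasmic proteins of leukocytes, 18 were tested, 9 were called lower and none was called higher (0 at an unadjusted p under 0.05), with a median log2 fold change of -1.01. TYROBP and FCER1G, the adaptors of many activating receptors, had log2 fold changes of -3.11 and -2.42, and VAV1, a guanine nucleotide exchange factor of blood cells, had -2.30. VAV1 was 1 of 2 called genes of the leukocyte list that passed the filter only through Control. FCER1G, at 35.1 and 36.6 FPKM in Control, was above each of the 7 blood-restricted surface protein genes followed here.

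**Figure D3:**
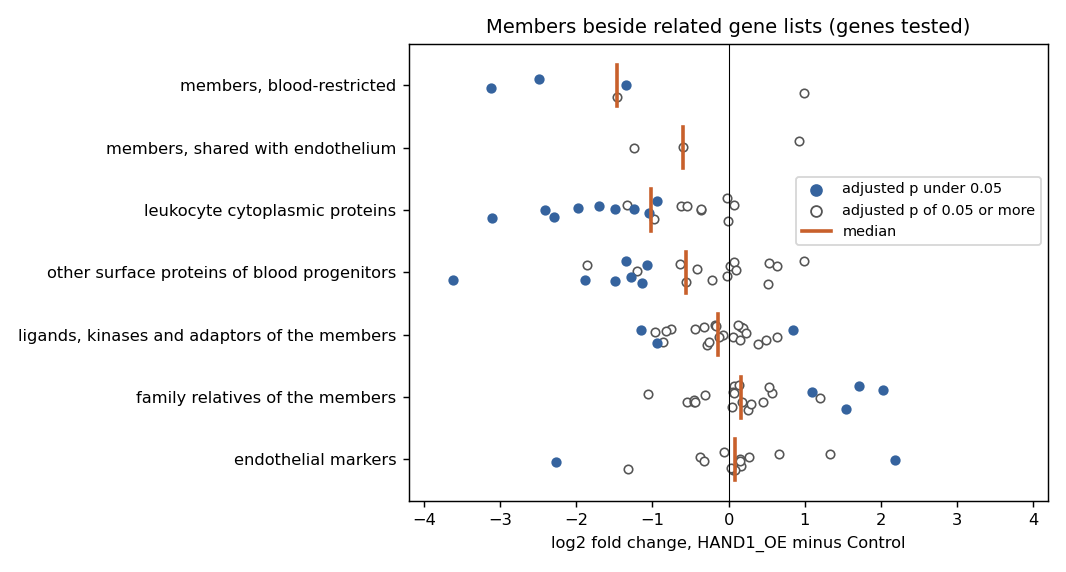
Log2 fold change (HAND1_OE against Control) of the tested genes of each list, 1 row per list, with points for genes and a mark for the list's median. The leukocyte and other surface protein lists reach far to the lower side, and the endothelial markers center near 0.

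Most tested markers of erythroid, megakaryocytic and myeloid cells, which the CD31+ population could hold, were called lower, as SPN, CD69 and CD53 were. CD52 had the opposite sign and was not called. In the erythroid list 11 of 12 genes tested were called lower, and the summed level was between 889 and 1283 FPKM in Control and between 57.0 and 70.3 FPKM in HAND1_OE. In the megakaryocyte list 7 of 8 tested genes were called lower, with sums from 162 to 205 FPKM in Control and from 12.1 to 17.7 FPKM in HAND1_OE. In the myeloid list 3 of 4 tested genes were called lower, with sums from 68.8 to 84.9 FPKM in Control and from 6.85 to 10 FPKM in HAND1_OE, and 3 of its 13 genes were listed at 0 in all libraries. Mast cell and basophil markers had 1 gene tested, HDC, which was called lower, with sums from 8.49 to 9.997 FPKM in Control and from 0.559 to 0.620 FPKM in HAND1_OE. None of the 4 tested lymphoid markers was called (3 were lower and 1 higher at an unadjusted p under 0.05), with sums from 17.6 to 18.8 FPKM in Control and from 12.4 to 13.5 FPKM in HAND1_OE. CD3E, CD3G and MS4A1, markers of T and B cells, were listed at 0 in all libraries. Other T and B cell markers of the list were not absent. CD79B was at 14.1 and 13.6 FPKM in Control, against 10.7 and 9.48 FPKM in HAND1_OE. CD3D was higher without overlap, at 0.315 and 0.476 FPKM in Control, against 1.31 and 1.83 FPKM in HAND1_OE. Called genes under 1 FPKM in both HAND1_OE libraries entered the test only through Control, which fixed their direction, and they were 2 of the 11 erythroid, 3 of the 7 megakaryocytic and 1 of the 3 myeloid genes called lower, and HDC. The part of these lineages in the values of SPN, CD69, CD53 and CD33 was not tested.

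All 15 endothelial markers were tested, with 1 called lower (CLDN5, a tight junction protein) and 1 called higher (VWF, von Willebrand factor), and their sums overlapped between Control, at 2214 to 2696 FPKM, and HAND1_OE, at 2505 to 2758 FPKM. Mesenchymal markers had 2 of 9 tested genes called higher, PDGFRB and LUM, and none called lower, while at an unadjusted p under 0.05 the list had 5 higher and 1 lower, and had sums from 810 to 889 FPKM in Control and from 1197 to 1206 FPKM in HAND1_OE. Mesenchymal cells carry CD44 too, and the part of these cells in its values was not tested. No cardiac marker (5 tested) and no pluripotency marker (6 tested) was called, while 2 of the first and 3 of the second were at an unadjusted p under 0.05, and their sums were from 31.7 to 48.3 and from 95.5 to 112 FPKM in Control and from 27.7 to 29.8 and from 67.4 to 85.5 FPKM in HAND1_OE.

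**Figure D4:**
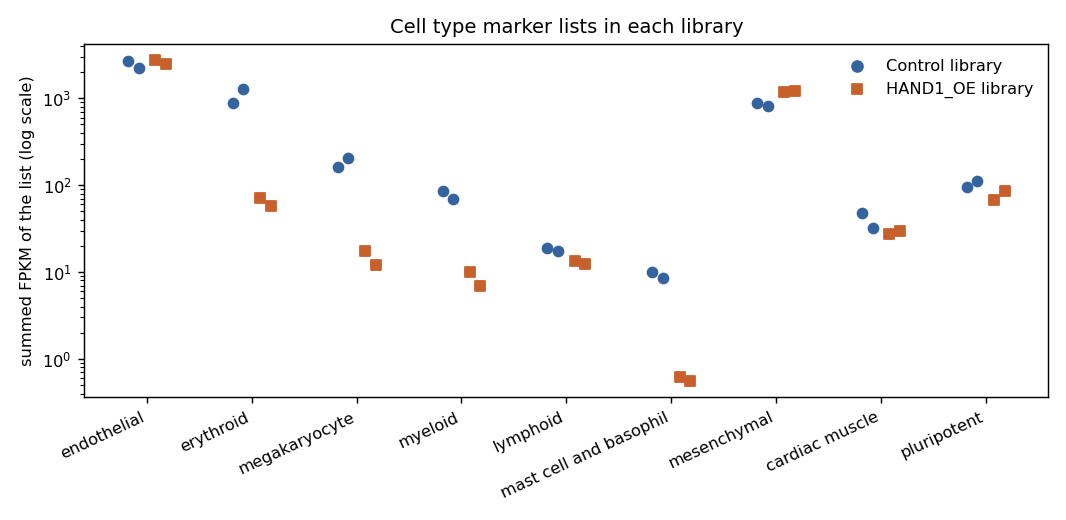
Summed level of each cell type marker list in each library, in FPKM on a log axis. The erythroid, megakaryocyte, myeloid and mast cell lists are lower in both HAND1_OE libraries. The lymphoid, cardiac and pluripotent lists are also lower in both, by less. The mesenchymal list is higher in both, and the endothelial sums overlap.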

How the data were processed

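RNA-seq was done on total RNA (TruSeq kit) of 4 libraries, grouped by title. The authors deposited 1 table of gene values taken here as FPKM, the unit the study plots, since they were neither whole nor of equal sums (536284 to 606609). The submitters' processing notes name BWA, Bowtie, RSEM and hg19, while row coordinates match GRCh38. They count starts from 0 and are given here from 1, with annotation from GENCODE 29. Of 58365 rows, 45 Y copies of pseudoautosomal genes and 91 repeated gene IDs were left out. FPKM holds no counts. Fragments were estimated from the smallest steps in low single-exon genes, which imply 21600000 to 26200000 fragments per library, cover counting error only and carry no interval. Between 667 and 681 genes per library had a value above 0 but below 0.0001 FPKM.

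The limma 3.58.1 test (R 4.3.3) with a mean-variance trend ran on log2(FPKM + 1), was two-sided, and was adjusted by Benjamini-Hochberg over all genes tested. It was also run on data simulated from its own fitted prior with independent genes, which cannot show how well the model suits these libraries. Alternatives covered pseudocount, filter, scaling, prior, replicate block and each library left out. Named were all 10 genes, HAND1, up to 3 called genes of each list by size of change, and ligands or markers near 0, and any other name was picked once its values were known. The 10 genes and the lists were chosen with earlier results of these data known.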

Additional observations from a re-analysis of the deposited data

How the results depend on the processing

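The 8 tested genes kept the direction of their change in all 125 recomputed fold changes, of which 7 lost a call and 7 gained one. Many of these could not differ in direction. Alternatives that changed only the genes tested, the prior, the block or the threshold left each fold change as it was. The direction of CD53 was fixed by the filter. Without the filter on low values, 0 genes were called lower and 0 higher by limma, with 2352 and 1458 of 29860 at an unadjusted p under 0.05, and 0 of the 10 surface protein genes were called, SPN having an adjusted p of 0.153, CD69 of 0.167 and CD53 of 0.170. With the replicate number as a block, 712 genes were called lower and 597 higher, and CD44, 1 of the 10, was called higher (adjusted p = 0.0131) and CD34 lower (adjusted p = 0.0399). The deviations of same-numbered libraries correlated at 0.383 over genes, and with only 2 pairs and no label of a shared culture the numbers do not show pairing. Leaving out each library gave 137 to 309 genes called lower and 134 to 266 called higher. The counts were 144 and 141 without Control replicate 1 and 137 and 134 without Control replicate 2. SPN and CD69 stayed called in each of these fits, with log2 fold changes between -3.41 and -2.85 and between -2.77 and -2.22. CD33 was also called among protein-coding genes alone (adjusted p = 0.0347) and among genes at 1 FPKM in every library (adjusted p = 0.0461), where SPN, CD53 and CD52 were not tested. The median of the blood-restricted genes was -2.80 with a pseudocount of 0.1, which is the value of CD53, whose direction the filter had fixed. It was -1.98 with 1 FPKM in every library, where it rested on CD33 and CD69 alone. With 2 libraries per group, and at the few fragments behind PTPRC, CD48 and CD52, differences of modest size could not be resolved.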
